A study of Mus musculus with 21 samples.

Results

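A set of 10 genes of the glycolytic pathway was followed through the RNA sequencing data of 7 groups of mouse embryonic fibroblasts (MEFs). The genes were chosen by name as Slc2a1, Hk2, Pfkl, Aldoa, Gapdh, Pgk1, Pgam1, Eno1, Pkm and Ldha, and each was found as 1 row of the deposited gene table, giving 10 of 24454 genes. All 10 passed the filter on low counts, which left 13719 genes for testing. Slc2a1 encodes a transporter and the others encode enzymes, and the steps catalysed by Gpi1 and Tpi1 are not among them.

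Glycolysis turns glucose into pyruvate in the cytosol and yields ATP and NADH without oxygen. Glucose enters fibroblasts through the transporter GLUT1, the product of Slc2a1, and is phosphorylated by hexokinase, so that the early enzymes spend ATP and the later ones, from glyceraldehyde-3-phosphate dehydrogenase to pyruvate kinase, recover it. Lactate dehydrogenase then reduces pyruvate to lactate and regenerates NAD+. Several of these genes are textbook targets of hypoxia-inducible factor 1 (HIF-1) and of MYC, and cultured fibroblasts run the pathway at a high rate in glucose-rich medium.

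The study asked how loss of the helicase RTEL1, which unwinds G-quadruplex (G4) DNA and telomeric t-loops, changes transcription. MEFs of a floxed Rtel1 line (labelled Rtel1f/f, here Rtel1 F/F) were infected with adenovirus carrying GFP (+GFP, the control) or Cre (+Cre, which deletes the floxed allele) and collected after 96 h. A further group of +GFP cells received 10 µM of the G4-binding porphyrin TMPyP4 for the last 48 h. Rtel1 F/F cells transduced with a pBabe vector for the mutant RTEL1 C1252A/C1255A (labelled RTEL1 CA) and Terf1 F/F cells (labelled Trf1f/f, a floxed gene for the shelterin protein TRF1) were each infected with GFP or Cre in the same way. Each group held 3 libraries that the labels call biological replicates, and the labels name 1 cell line for each floxed gene, so differences between lines cannot be told apart from differences between genotypes. All groups, controls included, carried an adenovirus with GFP or Cre. Total counts ranged from 32069888 to 51938593 per library, with a median of 43013208. Values below are normalised CPM, the read counts scaled to library size with TMM factors, unless TPM is named, which is also scaled for transcript length.

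Because the study concerned G4 DNA, and because HIF-1 binds the letters ACGTG, the promoters of the 10 genes were read from RefSeq (GRCm38.p6, the same assembly as the mm10 build of the files), from 250 bases before to 50 bases after each start held there. There were 16 such windows, some of them overlapping, and for Ldha, Gapdh and Aldoa they did not include the outermost 5′ end of the gene as positioned further on. The letters ACGTG were searched on both strands, and so was the E-box CACGTG, in which the shorter letters lie and which was counted under both, and a G4 pattern of 4 runs of at least 3 G with loops of 1 to 7 bases. The G4 pattern lay in 11 of the 16 promoters (68.8%) and in 18.6% of all 32851 promoters. ACGTG lay in 9 of 16 (56.2%) and in 19.62% of all. CACGTG lay in 1 of 16 (6.25%), that of Ldha, and in 7.15% of all. These matches describe letters and not binding sites or structures. The 4 promoters below are those of Pgk1 and Pgam1, the genes with the largest rises after Rtel1 deletion, of the Ldha start whose window held the most ACGTG matches, and of Slc2a1, whose level changed least. They are written 5′ to 3′ on the strand of the gene, with the start at base 251, and capitals mark ACGTG or its reverse complement and runs that fit the G4 pattern (as C where the pattern is on the opposite strand).
Pgk1, chrX:106186850-106187149, plus strand: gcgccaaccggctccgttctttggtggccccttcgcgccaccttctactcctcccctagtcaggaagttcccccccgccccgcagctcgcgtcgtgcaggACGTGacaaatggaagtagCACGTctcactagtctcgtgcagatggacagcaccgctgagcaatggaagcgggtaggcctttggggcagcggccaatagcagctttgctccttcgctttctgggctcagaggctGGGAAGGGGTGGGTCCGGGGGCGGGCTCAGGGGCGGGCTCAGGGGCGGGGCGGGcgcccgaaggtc
Pgam1, chr19:41911621-41911920, plus strand: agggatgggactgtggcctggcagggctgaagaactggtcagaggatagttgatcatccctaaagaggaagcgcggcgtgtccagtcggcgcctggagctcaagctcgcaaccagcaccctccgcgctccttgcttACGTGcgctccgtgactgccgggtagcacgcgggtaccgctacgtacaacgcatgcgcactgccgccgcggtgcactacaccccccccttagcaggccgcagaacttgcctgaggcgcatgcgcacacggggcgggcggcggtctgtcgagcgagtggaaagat
Ldha, chr7:46845554-46845853, plus strand: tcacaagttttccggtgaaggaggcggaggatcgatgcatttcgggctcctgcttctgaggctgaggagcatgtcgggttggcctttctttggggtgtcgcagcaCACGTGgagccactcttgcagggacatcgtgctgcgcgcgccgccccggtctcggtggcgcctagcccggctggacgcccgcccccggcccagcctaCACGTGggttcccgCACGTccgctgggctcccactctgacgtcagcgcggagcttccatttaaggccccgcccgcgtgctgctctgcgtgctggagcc
Slc2a1, chr4:119108495-119108794, plus strand: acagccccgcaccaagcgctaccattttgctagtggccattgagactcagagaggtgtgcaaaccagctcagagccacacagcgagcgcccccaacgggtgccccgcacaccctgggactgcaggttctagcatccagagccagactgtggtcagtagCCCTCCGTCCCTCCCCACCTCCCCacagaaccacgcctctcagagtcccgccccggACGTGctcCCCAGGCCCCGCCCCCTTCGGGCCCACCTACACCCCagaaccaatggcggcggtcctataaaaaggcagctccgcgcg

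The targeted genes served as a check of the labels. In Rtel1 F/F cells Rtel1 stood at 66.2, 59.1 and 60.2 CPM after GFP infection, against 29.9, 31.9 and 26.8 CPM after Cre. In cells with the RTEL1 C1252A/C1255A vector the +GFP libraries held 338, 328 and 331 CPM of Rtel1 reads and the +Cre libraries 283, 253 and 257 CPM, so all 6 of these libraries lay above every other library. Terf1 fell from 27.9, 29.6 and 30.3 CPM to 0.1097, 0.0458 and 0.0268 CPM with Cre in Terf1 F/F cells. No library went against its label by these genes.

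Of 10 fibroblast markers, Vim, Sparc, Fn1, Col1a1 and Col1a2 were abundant in all groups, but Thy1, a surface marker of many fibroblasts, was nearly absent from the Rtel1 F/F cells with and without the vector (means of 0.05 to 0.273 TPM) and stood at 325 TPM in Terf1 F/F +GFP cells. The summed fibroblast markers were 10076, 10073 and 9480.1 TPM in Rtel1 F/F +GFP, 5033, 4323 and 4627 TPM in +Cre and 6904, 5637 and 5809 TPM in TMPyP4-treated libraries. They were 6122, 4659 and 5017 TPM in RTEL1 C1252A/C1255A +GFP libraries. The 3 Rtel1 F/F +GFP libraries were above these 9 libraries, with no overlap.

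Other cell types were at low levels. Epithelial, endothelial, blood and skeletal muscle markers summed to at most 11.8 TPM per group, with Krt19 and Cd68 as the most abundant genes, Myod1 at 0 in all 21 libraries and Adgre1 at 0 as well. Adipocyte markers came almost wholly from Fabp4 (27.5 TPM in Terf1 F/F +GFP, 2.55 TPM in Rtel1 F/F +GFP), and neural markers, led by Sox2 or Tubb3, summed to between 14.5 and 35.5 TPM. In bulk RNA, a change in the mix of cells and a change in RNA per cell cannot be told apart.

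A second check concerned libraries that stand apart. Within each group, log2 CPM relative to the group mean was regressed on the GC content of the transcript over 11786 genes, and the slope is given per 10 percentage points of GC. Libraries numbered 2 had slopes of -0.33 in Rtel1 F/F +Cre, -0.16 in TMPyP4-treated, -0.27 in RTEL1 C1252A/C1255A +GFP and -0.25 in RTEL1 C1252A/C1255A +Cre cells, the lowest of each group. Against the mean of all 21 libraries, the 3 Rtel1 F/F +GFP libraries had slopes of 0.27, 0.29 and 0.35, above each of the other 18. The 10 genes run from 49.7% GC in Pgk1 to 57.6% in Aldoa, against a median of 50.7% over those genes. Results of some comparisons are therefore also given without the libraries numbered 2 or after a GC correction, both chosen after seeing the data.

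**Figure D1:**
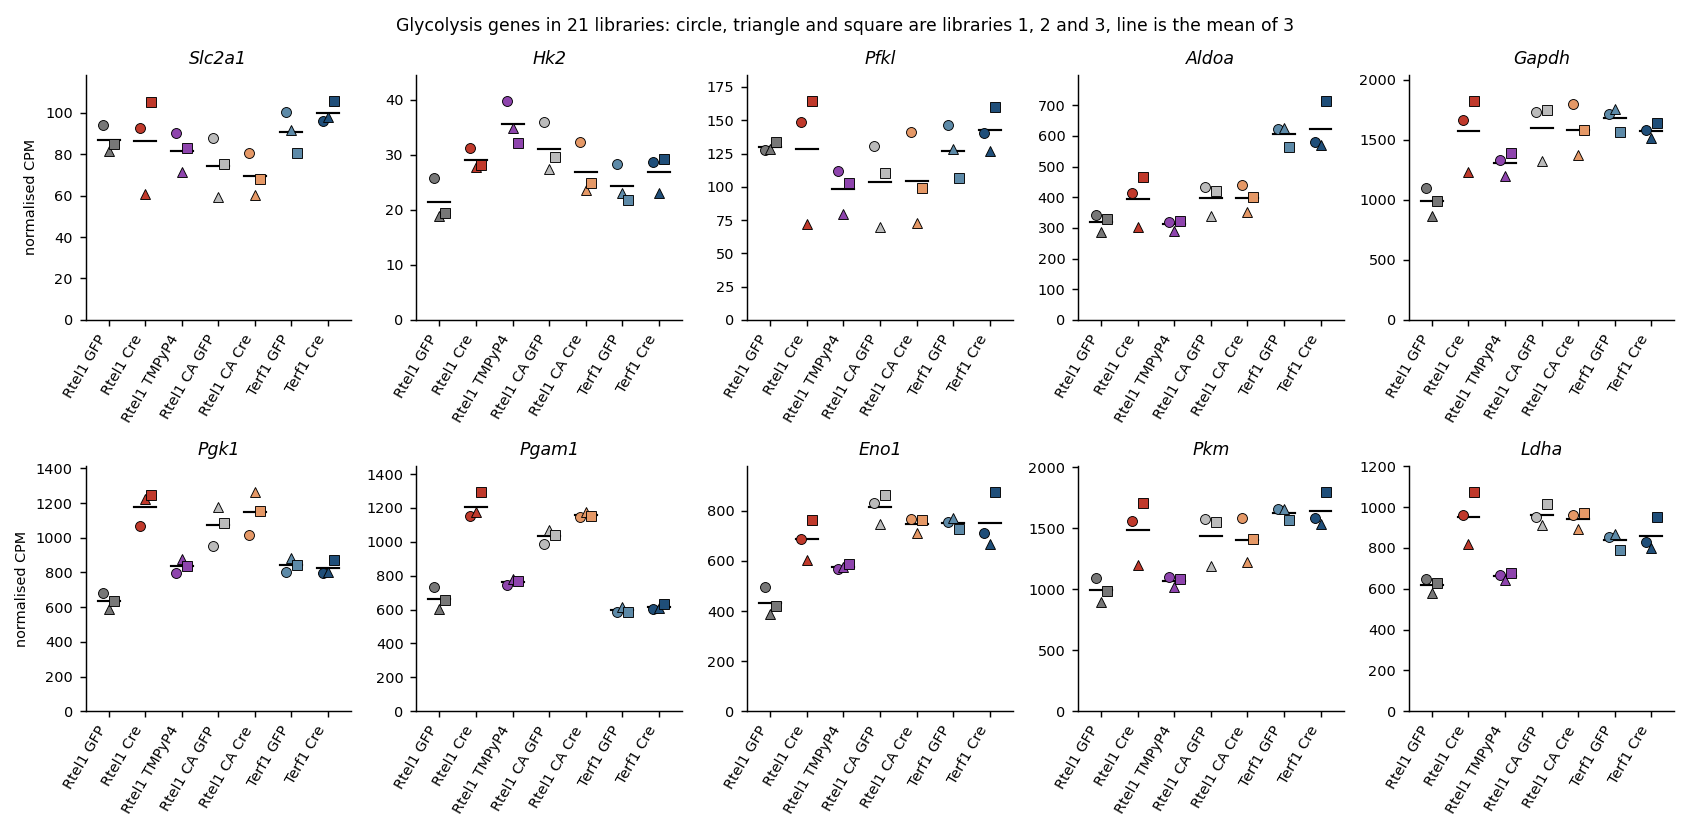
Normalised CPM (vertical axes, from 0) of the 10 genes in the 7 groups, with circle, triangle and square for libraries 1, 2 and 3 and a line for the mean of 3. The Rtel1 F/F +GFP libraries are the lowest group for Gapdh, Pgk1, Eno1, Pkm, Ldha and Hk2, and the Rtel1 F/F +Cre libraries lie above them without overlap for these genes and for Pgam1.

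Per length of transcript, the 10 genes covered a wide range. In Rtel1 F/F +GFP cells the mean was 1566 TPM for Gapdh, 871 TPM for Pkm, 846 TPM for Ldha and 795 TPM for Pgam1. It was 767 TPM for Pgk1, 537 TPM for Eno1 and 474 TPM for Aldoa. Pfkl (73.02 TPM), Slc2a1 (71.98 TPM) and Hk2 (7.98 TPM), which act in uptake and in the phosphorylation steps at the top of the pathway, were the 3 lowest. Gapdh was the most abundant and Hk2 the least abundant of the 10 in each of the 7 groups. Together the 10 genes held 0.652, 0.562 and 0.588% of all TPM in Rtel1 F/F +GFP, 0.812, 0.739 and 0.873% in the +Cre libraries and 0.638, 0.617 and 0.624% in the TMPyP4-treated libraries, so that +Cre lay above both others without overlap while the latter overlapped. The 12 libraries of the other 4 groups held 0.723 to 0.937%, also above all Rtel1 F/F +GFP and TMPyP4-treated libraries and overlapping +Cre.

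Deletion of Rtel1 was followed by higher levels of 6 of the 10 genes. Gapdh, Pgk1, Pgam1, Eno1, Pkm and Ldha rose between 1.502-fold and 1.85-fold in Rtel1 F/F +Cre against +GFP cells, while Slc2a1, Hk2, Pfkl and Aldoa did not pass the test. In the quasi-likelihood test of edgeR, adjusted by the Benjamini-Hochberg method over all 13719 genes, 6 of the 10 were called higher at an adjusted p of at most 0.01 and 0 lower, where 22% of all genes were called higher and 43% in either direction. At an unadjusted p under 0.05, 8 of 10 passed, beside 60.1% of all genes, and DESeq2 called 7 higher, Hk2 among them, beside 41% of all genes in either direction. The median log2 fold change was 0.60 over the 10 and -0.03 over all genes. The libraries of both groups did not overlap for 7 of the 10, all higher, against 29.4% of all genes higher and 32.1% lower without overlap. Against the RTEL1 C1252A/C1255A +GFP libraries in place of Rtel1 F/F +GFP, 0 of the 10 were called, as described further on.

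Glyceraldehyde-3-phosphate dehydrogenase, the product of Gapdh, makes the first high-energy intermediate and NADH. Gapdh (chr6:125161852-125166467, GRCm38.p6, as for all positions given here) stood at 1102, 865 and 992 CPM in +GFP and 1665, 1229.7 and 1823 CPM in +Cre libraries, with +Cre library 2 the lowest of its group but above all 3 controls. The log2 fold change was 0.67 ± 0.14 (SE), adjusted p = 4.43e-04. Phosphoglycerate kinase, encoded by Pgk1 (chrX:106187100-106203699), makes the first ATP of the pathway. Pgk1 stood at 683, 591 and 638 CPM in +GFP and 1068, 1223 and 1249 CPM in +Cre libraries, and the log2 fold change of 0.89 ± 0.09 (SE), adjusted p = 2.79e-07 was the largest of the 10. Here +Cre library 2 was not low, and every +Cre library lay above every control. Phosphoglycerate mutase, encoded by Pgam1 (chr19:41911871-41918665), shifts the phosphate group. Pgam1 stood at 732, 606 and 656 CPM in +GFP and 1153, 1178 and 1293 CPM in +Cre libraries. Its log2 fold change was 0.86 ± 0.07 (SE), adjusted p = 8.34e-09, the smallest adjusted p of the 10, and the groups did not overlap.

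Enolase 1, the product of Eno1 (chr4:150236708-150248879), makes phosphoenolpyruvate. Eno1 stood at 495, 387 and 419.7 CPM in +GFP and 689, 604 and 764 CPM in +Cre libraries without overlap, and its log2 fold change was 0.66 ± 0.10 (SE), adjusted p = 3.53e-05. Eno1 shares 99.5% identity over 1736 bases with the annotated copy Eno1b, and when the counts of both were summed before the fit the change was 0.50 (adjusted p = 0.0147) and was no longer called. Pyruvate kinase, encoded by Pkm (chr9:59656576-59679372), makes pyruvate and a further ATP. Pkm stood at 1093, 895 and 982 CPM in +GFP and 1555, 1200.1 and 1705 CPM in +Cre libraries, and its log2 fold change was 0.59 ± 0.13 (SE), adjusted p = 7.42e-04. Pkm lost its call when only the libraries of the 2 groups were fitted, at 0.58 (adjusted p = 0.0101). Ldha (chr7:46842274-46855627), which encodes the lactate dehydrogenase subunit that favours lactate formation, stood at 648, 577 and 630.4 CPM in +GFP and 962, 817 and 1073 CPM in +Cre libraries. Its log2 fold change was 0.62 ± 0.09 (SE), adjusted p = 1.08e-05. In all 3 genes the +Cre library 2 was the lowest of its group and still above the highest control.

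Slc2a1, Hk2, Pfkl and Aldoa, which act in uptake and in the steps up to aldolase, were not called. Slc2a1 (chr4:119108745-119137330) stood at 93.9, 81.6 and 84.9 CPM in +GFP and 92.4, 60.7 and 105 CPM in +Cre libraries, with a log2 fold change of -0.01 ± 0.17 (SE) and a 95% interval of -0.38 to 0.35. Pfkl (chr10:77986947-78009807), the liver-type subunit of phosphofructokinase, stood at 128, 128 and 134 CPM and 149, 71.9 and 165 CPM, with a log2 fold change of -0.02 ± 0.28 (SE) and an interval of -0.62 to 0.59. In both genes +Cre library 2 lay below all controls while libraries 1 and 3 lay within or above their range. Hk2 (chr6:82725025-82774454), the inducible hexokinase, stood at 25.8, 18.97 and 19.4 CPM in +GFP and 31.2, 27.7 and 28.2 CPM in +Cre libraries. Its groups did not overlap, but the log2 fold change of 0.44 ± 0.15 (SE), adjusted p = 0.0184, missed the threshold. Aldoa (chr7:126795234-126800994), aldolase A, which splits fructose-1,6-bisphosphate, stood at 343, 287 and 328 CPM and 415, 303 and 465 CPM with overlap, and its log2 fold change was 0.30 ± 0.14 (SE), adjusted p = 0.0669. After the GC correction, Hk2 and Aldoa were both called higher, at 0.53 (adjusted p = 0.00156) and 0.63 (adjusted p = 4.78e-06), and 8 of the 10 were called, with 48.8% of all genes called under that correction. With all libraries numbered 2 left out, 6 of 10 were called higher beside 28% of all genes in either direction, and Hk2 and Aldoa were at 0.39 (adjusted p = 0.105) and 0.39 (adjusted p = 0.0114).

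**Figure D2:**
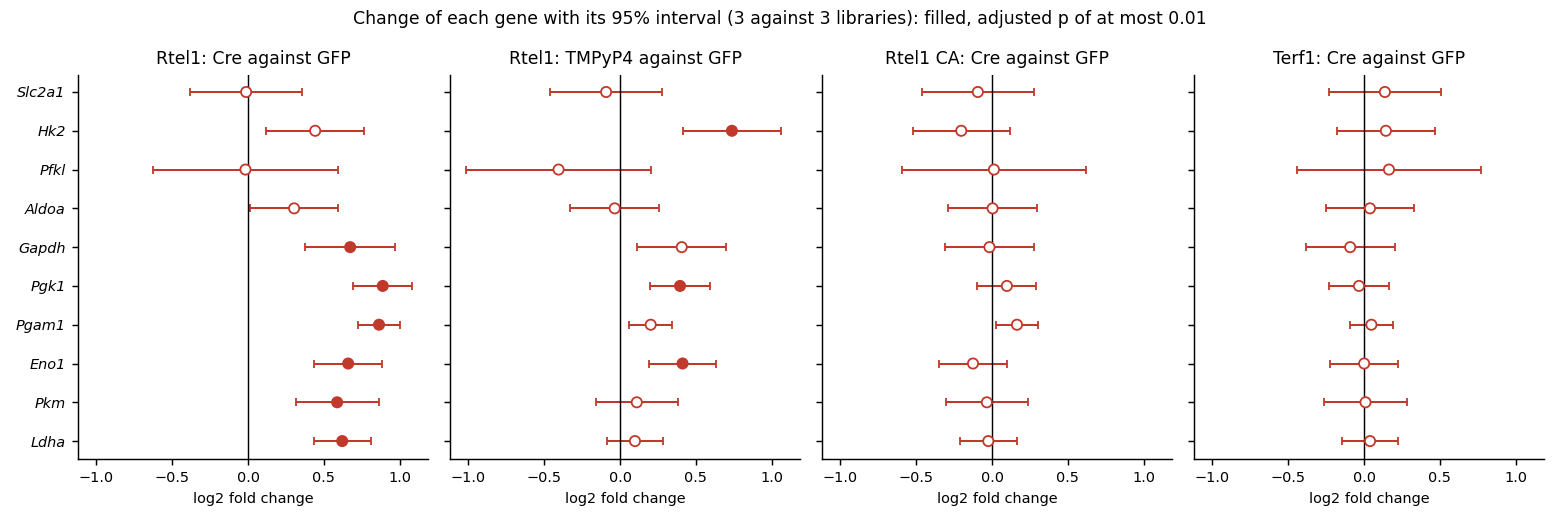
Log2 fold change (horizontal axis) of each gene with its 95% interval in 4 comparisons of 3 against 3 libraries, filled where edgeR's adjusted p was at most 0.01. In the Rtel1 F/F line 6 points are filled for Cre and 3 for TMPyP4, all to the right of 0, and none is filled for Cre in RTEL1 C1252A/C1255A or Terf1 F/F cells.

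With TMPyP4 fewer of the genes passed the test. In TMPyP4-treated against +GFP cells Hk2, Pgk1 and Eno1 rose, and 3 of 10 were called higher and 0 lower by edgeR, where 16.6% of all genes were called higher, 13.4% lower and 30% in either direction. The groups did not overlap for 6 of the 10, of which Pfkl was lower and the others higher, against 29.3% of all genes higher and 28.5% lower without overlap. DESeq2 called 4, Gapdh being the addition (of all genes, 30.3%), and 5 passed an unadjusted p under 0.05 (of all genes, 50.6%). The median log2 fold change was 0.16 over the 10 and -0.01 over all genes. Against the RTEL1 C1252A/C1255A +GFP libraries in place of Rtel1 F/F +GFP, Pgk1 (-0.35) and Eno1 (-0.49) were called lower and Hk2 (0.20) was not called. This comparison and that of +Cre use the same 3 +GFP libraries, so their values are given side by side and are not independent.

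Hk2 stood at 39.8, 34.9 and 32.2 CPM in the TMPyP4-treated libraries, all above the 3 controls, and its log2 fold change of 0.74 ± 0.15 (SE), adjusted p = 7.44e-04, compares with 0.44 after Rtel1 deletion. Pgk1 stood at 798, 878 and 839.9 CPM, between the +GFP and the +Cre libraries and overlapping neither, with a log2 fold change of 0.40 ± 0.09 (SE), adjusted p = 0.00194. Eno1 stood at 569, 574 and 589 CPM, also between both, with a log2 fold change of 0.41 ± 0.10 (SE), adjusted p = 0.00383. With Eno1b added the Eno1 change was 0.25 (adjusted p = 0.218). Gapdh (1328, 1202 and 1393 CPM) and Pgam1 (744, 781 and 767 CPM) lay above all controls but missed the threshold, at 0.41 ± 0.14 (SE), adjusted p = 0.0233, and 0.20 ± 0.07 (SE), adjusted p = 0.0189. Pkm (1099.96, 1019.98 and 1085 CPM, log2 fold change 0.11) and Ldha (666, 645 and 675 CPM, 0.10) overlapped the controls. Aldoa (-0.04) and Slc2a1 (-0.09) did as well, while Pfkl stood at 112, 79.8 and 103 CPM, below all controls, with a log2 fold change of -0.40 ± 0.28 (SE), adjusted p = 0.265. Without all libraries numbered 2, edgeR called 0 of 10 beside 12.9% of all genes, with Hk2 at 0.67 (adjusted p = 0.0198) and Pgk1 at 0.31 (adjusted p = 0.0498), and 4 had an unadjusted p under 0.05 (of all genes, 38.8%). Hk2 alone was called without +GFP library 2, +GFP library 3 or TMPyP4 library 2. With total counts in place of TMM factors Pgk1 (adjusted p = 0.0113) and Eno1 (adjusted p = 0.016) lost their calls as well. After the GC correction 5 of 10 were called, beside 35.6% of all genes.

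Compared directly, which leaves the shared controls aside, 4 of 10 genes were higher in Rtel1 F/F +Cre than in TMPyP4-treated cells and 0 lower, where 6.13% of all genes were called higher, 9.09% lower and 15.2% in either direction. The log2 fold change was 0.66 ± 0.07 (SE), adjusted p = 1.02e-06, for Pgam1, and 0.52 ± 0.09 (SE), adjusted p = 2.44e-04, for Ldha. It was 0.49 ± 0.09 (SE), adjusted p = 5.70e-04, for Pgk1, and 0.48 ± 0.13 (SE), adjusted p = 0.00975, for Pkm. In each of these 4 genes all 3 +Cre libraries exceeded all 3 TMPyP4-treated libraries. Eno1 and Hk2 did not overlap either but were not called, Eno1 at 0.25 ± 0.10 (SE), adjusted p = 0.0912, and Hk2, the one gene of the 10 with a negative value, at -0.29 ± 0.15 (SE), adjusted p = 0.169. Of all genes, 17.6% were higher and 20.2% lower without overlap. Same-numbered libraries of these 2 groups deviated together, and in a fit blocked on that number the count was also 4. Pkm lost its call in 5 of the 6 fits that left out 1 library, all but the one without +Cre library 2, and with only these 2 groups fitted the count was 2 (Pgk1 and Pgam1).

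In the other lines no gene of the 10 passed the test with Cre. In RTEL1 C1252A/C1255A cells edgeR called 0 of 10 in +Cre against +GFP (of all genes, 1.09% were called), DESeq2 called 0 (of all genes, 2.42%), and 1 passed an unadjusted p under 0.05 (of all genes, 14.2%). That gene was Pgam1, at 987, 1071 and 1041 CPM in +GFP libraries and 1144, 1175 and 1153 CPM in +Cre libraries without overlap, and a log2 fold change of 0.16 ± 0.07 (SE), adjusted p = 0.225. It was the 1 gene of 10 without overlap there, where 9.04% of all genes were higher without overlap. The log2 fold changes of the 10 lay between -0.20 and 0.16. In Terf1 F/F cells edgeR called 0 of 10, where it called 2.65% of all genes higher and 0.765% lower, 3.42% in all. DESeq2 called 0 of 10 as well, and 0 passed an unadjusted p under 0.05 (of all genes, 17.3%). The groups overlapped for all 10, where 13.1% of all genes were higher and 13.8% lower without overlap. The log2 fold changes lay between -0.09 and 0.16. For Pgk1 the 95% interval of the log2 fold change was -0.10 to 0.29 in RTEL1 C1252A/C1255A and -0.23 to 0.16 in Terf1 F/F cells, and for Gapdh -0.31 to 0.28 and -0.38 to 0.20.

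The difference between Cre effects was then tested itself, in the same fit. The Cre effect in Rtel1 F/F minus that in RTEL1 C1252A/C1255A cells was called for 5 of 10 genes, all higher (background 12.8% higher, 25.1% in either direction). On the log2 scale it was 0.79 ± 0.13 (SE), adjusted p = 1.29e-04, for Pgk1, 0.79 ± 0.15 (SE), adjusted p = 4.30e-04, for Eno1, and 0.70 ± 0.09 (SE), adjusted p = 1.84e-05, for Pgam1. It was 0.69 ± 0.19 (SE), adjusted p = 0.00926, for Gapdh and 0.65 ± 0.12 (SE), adjusted p = 5.36e-04, for Ldha. Against Terf1 F/F the same 5 genes were called (background 15.8% higher, 30.2% in either direction), with the largest difference, 0.92 ± 0.13 (SE), adjusted p = 2.19e-05, again in Pgk1. Gapdh lost its call against RTEL1 C1252A/C1255A cells in 8 of the 12 fits that left out 1 library and also with total counts in place of TMM factors (adjusted p = 0.0215), with at least 10 counts in every library required (0.0107) and with only the compared groups fitted (0.0419). Eno1 lost its call against Terf1 F/F cells without the libraries numbered 2 (0.0189). Pkm was just above the threshold in both, at adjusted p = 0.0109 and 0.0147, and Hk2 had 0.65 ± 0.21 (SE), adjusted p = 0.0227, against RTEL1 C1252A/C1255A cells. DESeq2 called 7 of 10 against RTEL1 C1252A/C1255A, with Hk2 and Pkm added, and 6 against Terf1 F/F cells, with Pkm added, all higher, beside 28.5% and 31.2% of all genes in either direction. With Eno1b counts added, the difference for Eno1 was 0.62 (adjusted p = 0.0415) against RTEL1 C1252A/C1255A and 0.44 (adjusted p = 0.128) against Terf1 F/F cells, and was called in neither.

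These differences involve the Rtel1 F/F +GFP libraries, which were the lowest of the 7 groups for Hk2, Gapdh, Pgk1, Eno1, Pkm and Ldha. RTEL1 C1252A/C1255A +GFP cells, which carry the undeleted floxed alleles as well as the vector, had 7 of 10 genes called higher than Rtel1 F/F +GFP cells and 0 lower (background 22.6% higher, 44.7% in either direction). The log2 fold change was 0.91 ± 0.10 (SE), adjusted p = 1.02e-06, for Eno1 (831, 746 and 863 CPM). It was 0.75 ± 0.09 (SE), adjusted p = 1.93e-06, for Pgk1 (953, 1176 and 1083 CPM). The others were 0.70 for Gapdh, 0.64 for Pgam1, 0.63 for Ldha, 0.54 for Pkm and 0.54 for Hk2, each without overlap, where 30.5% of all genes were higher and 33% lower without overlap. Hk2 lost its call without Rtel1 F/F +GFP library 2 or 3 or RTEL1 C1252A/C1255A +GFP library 1. It also lost the call with total counts in place of TMM factors (adjusted p = 0.0198). The same held with only the compared groups fitted (0.0161) and without all libraries numbered 2 (0.0318). Terf1 F/F +GFP cells had 6 of 10 called higher than Rtel1 F/F +GFP cells (background 30.3% higher, 54.9% in either direction). The largest was Aldoa, at 623, 627 and 565 CPM and a log2 fold change of 0.92 ± 0.14 (SE), adjusted p = 1.11e-05, followed by Eno1 (0.79), Gapdh (0.77), Pkm (0.72), Ldha (0.44) and Pgk1 (0.40), each without overlap (background 38.4% higher). Pgk1 lost its call without Rtel1 F/F +GFP library 2 or 3 or Terf1 F/F +GFP library 2, and without all libraries numbered 2 (adjusted p = 0.0203). Pgam1 was instead lowest in the Terf1 F/F line, at 583, 618 and 585 CPM in +GFP libraries and 602, 611 and 635 CPM in +Cre libraries, overlapping Rtel1 F/F +GFP.

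Setting the Rtel1 F/F +Cre libraries against RTEL1 C1252A/C1255A +GFP, a choice of control made after seeing the data, left 0 of 10 genes called by edgeR (background 3.8% higher and 3.95% lower, 7.76% in all), with 2 at an unadjusted p under 0.05 (of all genes, 24.7%). Gapdh then had a log2 fold change of -0.03 with an interval of -0.32 to 0.27, Ldha -0.01 (-0.20 to 0.17) and Pgk1 0.14 (-0.05 to 0.33). Pgam1 had a positive value of 0.23 ± 0.07 (SE), adjusted p = 0.0276, and Eno1 a negative one of -0.25 ± 0.10 (SE), adjusted p = 0.142. For the TMPyP4-treated libraries the same change of control turned the direction. Pgk1 had -0.35 ± 0.09 (SE), adjusted p = 0.00729, and Pgam1 -0.43 ± 0.07 (SE), adjusted p = 7.76e-05. Eno1 had -0.49 ± 0.10 (SE), adjusted p = 0.00163, and Ldha -0.53 ± 0.09 (SE), adjusted p = 1.75e-04. These 4 genes were called lower than in RTEL1 C1252A/C1255A +GFP cells (background 7.07% lower, 9.94% higher, 17% in either direction), and Hk2 had 0.20. These 2 control groups differ in the vector and in whatever came with the derivation of the transduced cells, and the parts of each cannot be told apart.

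**Figure D3:**
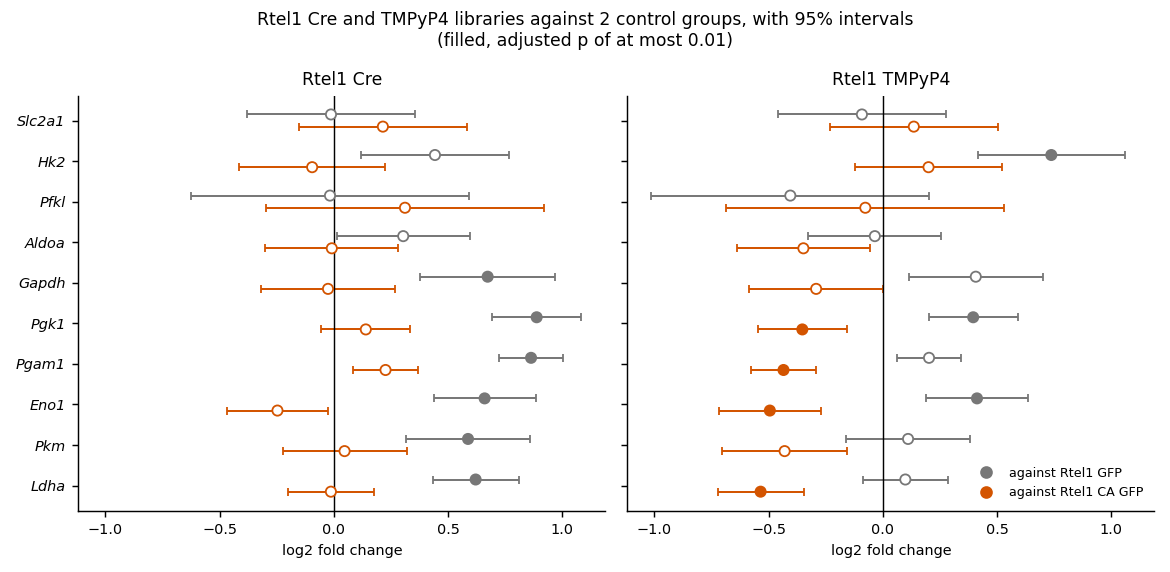
Log2 fold change (horizontal axis, with 95% intervals) of the Rtel1 F/F +Cre libraries (left) and the TMPyP4-treated libraries (right) against Rtel1 F/F +GFP (grey) and RTEL1 C1252A/C1255A +GFP (orange), filled where the adjusted p was at most 0.01. With the second control none of the 10 genes is called for +Cre, and Pgk1, Pgam1, Eno1 and Ldha are called lower for TMPyP4.

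The spread within groups went with GC content for some of the 10 genes and not for others. In Rtel1 F/F +Cre, library 2 was low for Pfkl, at 149, 71.9 and 165 CPM in the 3 libraries, and for Slc2a1 and Gapdh, whose transcripts hold 56.3, 56.1 and 56.1% GC. It was not low for Pgk1 (49.7% GC). Aldoa and Eno1, with 57.6 and 56.5% GC above Pfkl, lay by -0.36 and -0.18 on the log2 scale from their group mean in that library, against -0.75 for Pfkl and -0.21 for Ldha (52.02% GC). In both RTEL1 C1252A/C1255A groups library 2 was likewise low for Pfkl and not for Pgk1. Pfkl stood at 130.4, 69.7 and 110.2 CPM in +GFP libraries and 141, 72.7 and 99.4 CPM in +Cre libraries. Pgk1 stood at 953, 1176 and 1083 CPM and 1018, 1263 and 1157 CPM. In both, library 2 was the lowest for Pfkl and the highest for Pgk1. The part of GC content in the differences between groups was not tested beyond the GC correction, under which 8 of 10 genes were called in Rtel1 F/F +Cre against +GFP (48.8% of all genes, against 43% uncorrected) and 8 of 10 differed in Cre effect from RTEL1 C1252A/C1255A cells (31.1% of all genes, against 25.1% uncorrected). The correction thus raised the share called among all genes as well.

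**Figure D4:**
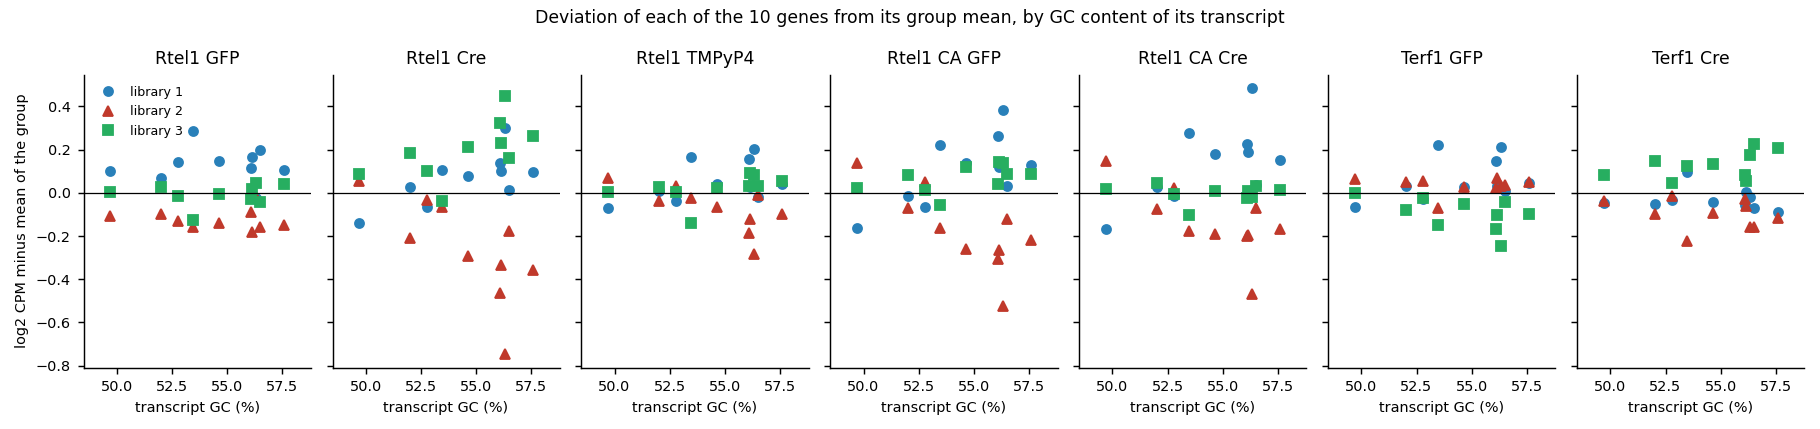
Deviation of log2 CPM from the mean of its group (vertical axis) against transcript GC content in percent (horizontal axis) for the 10 genes, with blue circles, red triangles and green squares for libraries 1, 2 and 3. In Rtel1 F/F +Cre and in both RTEL1 C1252A/C1255A groups the triangles lie above 0 for Pgk1 and lowest for Pfkl, while Eno1 and Aldoa, the genes of highest GC content, lie nearer 0 than Pfkl.

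Isozymes of the 10 genes that held at least 5% of their family's TPM in some group were Slc2a3, Hk1, Pfkm, Pfkp, Eno1b and Ldhb. Hk1, the constitutive hexokinase, held 87.3% ± 1.47 (SD, n = 3) of hexokinase TPM in Rtel1 F/F +GFP cells, and its log2 fold change was 0.06 ± 0.16 (SE) with Cre and 0.00 ± 0.16 with TMPyP4. The share of Hk2 was 12.4% ± 1.57 in +GFP, 15.7% ± 1.37 in +Cre and 19.2% ± 1.102 in TMPyP4-treated cells. Pfkl held 43.1% ± 1.005 of phosphofructokinase TPM in +GFP cells, with Pfkm at 34.05% ± 0.871 and Pfkp at 22.8% ± 0.173, and neither Pfkm (-0.17) nor Pfkp (-0.22, adjusted p = 0.0103) was called after Rtel1 deletion. Slc2a3, a high-affinity glucose transporter, held 5.41% ± 1.29 of the summed TPM of Slc2a1, Slc2a3 and Slc2a4 in +GFP cells. It fell after Rtel1 deletion, with a log2 fold change of -0.87 ± 0.17 (SE), adjusted p = 2.77e-04. Its share was 3.19% ± 0.833 in +Cre cells. In undeleted cells of the other lines it was also low, at 2.93% ± 1.006 in RTEL1 C1252A/C1255A +GFP and 1.98% ± 0.782 in Terf1 F/F +GFP cells.

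The lactate dehydrogenases moved in opposite directions after Rtel1 deletion. Ldhb, whose subunit favours the oxidation of lactate, stood at 107, 178 and 161 TPM in Rtel1 F/F +GFP, 36.6, 40.4 and 34.98 TPM in +Cre and 58.3, 56.03 and 49.3 TPM in TMPyP4-treated libraries, without overlap among the 3 groups. Its log2 fold change in CPM was -1.76 ± 0.12 (SE), adjusted p = 1.94e-09, with Cre and -1.25 ± 0.12 (SE), adjusted p = 3.77e-07, with TMPyP4. The ratio of Ldha to Ldhb in TPM was 8.22, 4.58 and 5.25 in +GFP, 30.1, 24.5 and 34.2 in +Cre and 13.9, 13.99 and 15.9 in TMPyP4-treated libraries. In RTEL1 C1252A/C1255A +GFP libraries it was 35.3, 31.7 and 34.9, and in Terf1 F/F +GFP libraries 29.7, 28.4 and 26.3, so the 3 Rtel1 F/F +GFP libraries had the lowest ratios of all 21. In RTEL1 C1252A/C1255A +GFP against Rtel1 F/F +GFP cells the log2 fold change of Ldhb was -1.96 ± 0.12 (SE), adjusted p = 5.92e-10.

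Eno1 and Eno1b, which can share reads, were both abundant, and their sum was 1139, 909 and 950.2 TPM in Rtel1 F/F +GFP and 1297, 941 and 1323 TPM in +Cre libraries, which overlapped. Eno1 took 53.4, 54.5 and 53.5% of the sum in +GFP and 55.3, 70.6 and 58.1% in +Cre libraries. The higher share in library 2 recurred in TMPyP4-treated (56.01, 66.6 and 58.5%) and RTEL1 C1252A/C1255A +GFP libraries (58.4, 69.9 and 61.1%). The division of reads between both genes is therefore uncertain. Gapdh has the copies Gm12070 (99.9% identity over 1002 bases) and Gm5069 (95.55% over 1011 bases), which held 26282 and 518 counts in all libraries together against 1311930 for Gapdh.

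**Figure D5:**
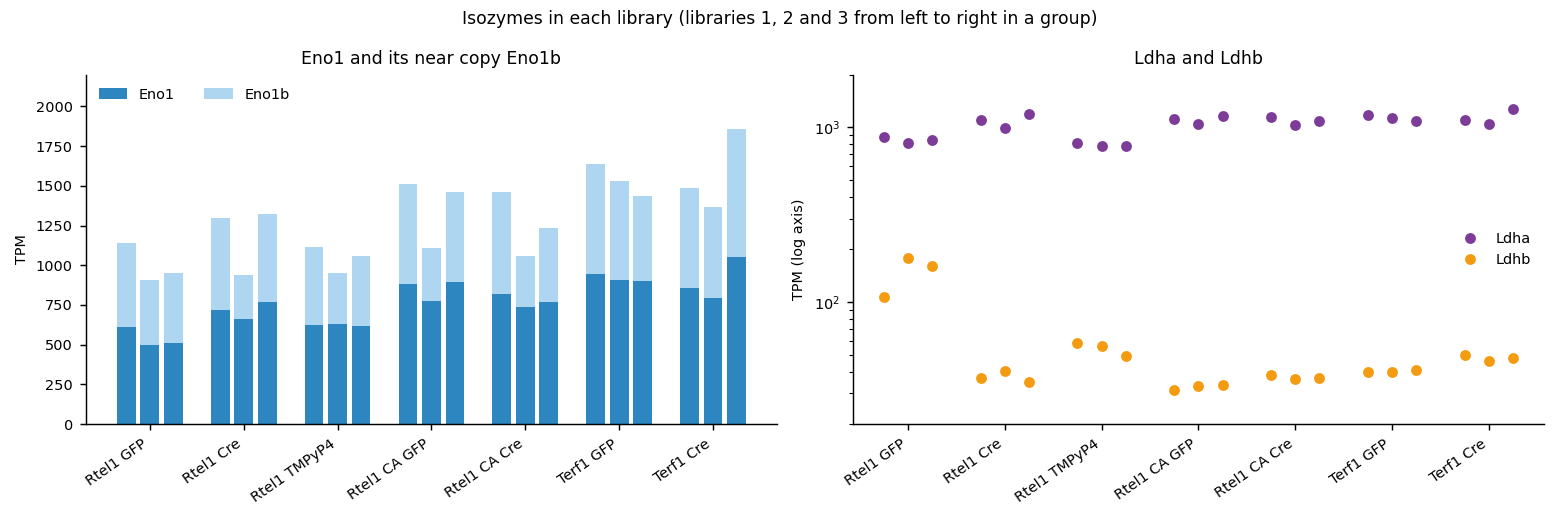
Left, TPM of Eno1 (dark) stacked with Eno1b (light) in each library, from 0. Right, TPM of Ldha and Ldhb in each library on a log axis, with Ldhb at 107, 178 and 161 TPM in Rtel1 F/F +GFP cells and lower in all other libraries.

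Other genes around the pathway, from lists chosen with results of these data known, moved both ways. Values in parentheses in this and the next 4 paragraphs are log2 fold changes in CPM of genes that passed the test, the first with Cre and the second with TMPyP4 where a pair is given. The counts stand beside 22% of all genes called higher and 21% lower with Cre, and 16.6% and 13.4% with TMPyP4. Of 22 further glycolysis genes, most of them isozymes, 14 were tested, and 4 higher and 4 lower of 14 were called after Rtel1 deletion, with a median log2 fold change of -0.05 beside -0.03 for all genes. Gpi1, the isomerase between hexokinase and phosphofructokinase, rose from 223, 190.2 and 207 CPM to 316, 278 and 354 CPM, a log2 fold change of 0.61 ± 0.09 (SE), adjusted p = 1.59e-05. Triosephosphate isomerase, Tpi1, had 0.20 ± 0.09 (SE), adjusted p = 0.0761. With TMPyP4 2 higher and 3 lower of 14 were called, with a median of -0.03 beside -0.01 for all genes. The muscle enolase Eno3 rose in both (0.76 and 0.44), as did the ADP-dependent glucokinase Adpgk (0.35 and 0.38), and the neuronal enolase Eno2 fell in both (-1.26 and -0.79). These lists also differed between the undeleted RTEL1 C1252A/C1255A +GFP and Rtel1 F/F +GFP cells. There edgeR called 22.6% of all genes higher and 22.1% lower. DESeq2 called 2 higher and 6 lower of 15 further glycolysis genes, without Eno1b, which was listed with an alternative name and not matched. The share of all genes called by DESeq2 in that comparison is not reported here. Its counts for that comparison, also in the next 4 paragraphs, therefore have no background from the same method.

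Among 21 genes for the control of glycolysis and the fate of pyruvate and lactate, 8 higher and 5 lower of 21 were called after Rtel1 deletion and 9 higher and 2 lower of 21 with TMPyP4. The counts from DESeq2 leave out Tigar, Mpc1 and Mpc2, which were listed with alternative names and not matched. Of the other 18, DESeq2 called 7 higher and 5 lower with TMPyP4. For RTEL1 C1252A/C1255A +GFP against Rtel1 F/F +GFP cells it called 8 higher and 4 lower of 18. The median log2 fold changes were 0.22 with Cre and 0.04 with TMPyP4. Tigar, a phosphatase that lowers fructose-2,6-bisphosphate, rose from 11.6, 10.03 and 10.7 CPM to 20.7, 22.9 and 21.8 CPM with Cre (1.02 ± 0.07 (SE), adjusted p = 1.05e-09) and also rose with TMPyP4 (0.57). Pfkfb1, which makes and breaks down fructose-2,6-bisphosphate, rose in both (0.73 and 0.69). The pyruvate dehydrogenase kinase Pdk2, which inactivates the pyruvate dehydrogenase complex, fell in both (-1.58 and -1.08). Of that complex, Dlat (0.74 and 0.64) and Dld (0.69 and 0.60) rose in both, as did Pdha1 (0.48 and 0.57), Pdhb (0.48 and 0.40) and the mitochondrial pyruvate carrier subunit Mpc1 (0.42 and 0.59), these last 3 being named after their values were seen.

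In the pentose phosphate pathway 3 higher and 1 lower of 8 were called with Cre and 2 higher and 1 lower of 8 with TMPyP4. G6pdx, the enzyme that commits glucose to this pathway, rose by 0.71 and 0.54 on the log2 scale and Rpe, a ribulose phosphate epimerase, by 0.59 and 0.54. The next dehydrogenase, Pgd, rose with Cre (0.51), and H6pd, the hexose-6-phosphate dehydrogenase of the endoplasmic reticulum, fell in both (-0.80 and -0.67). DESeq2 called 4 higher and 1 lower of these 8 with Cre. It gave the same counts for undeleted RTEL1 C1252A/C1255A +GFP against Rtel1 F/F +GFP cells. Of 7 gluconeogenesis genes 3 were tested. Pyruvate carboxylase, Pcx (-0.89), and the mitochondrial phosphoenolpyruvate carboxykinase, Pck2 (-0.67), fell with Cre. With TMPyP4 edgeR called 0 of the 3, DESeq2 called 1, and 2 had an unadjusted p under 0.05. Between RTEL1 C1252A/C1255A +GFP and Rtel1 F/F +GFP cells DESeq2 called 0 higher and 2 lower of the 3, as it did with Cre.

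HIF targets outside glycolysis moved both ways. With Cre 4 higher and 5 lower of 17 were called and with TMPyP4 4 higher and 4 lower of 17, with medians of -0.10 and 0.10. The mitochondrial protein Higd1a rose in both (1.13 and 0.56), as did Ero1l (0.81 and 1.16), an oxidase of disulfide formation. The stress-response gene Ndrg1 fell with Cre, from 113, 113 and 117 CPM to 59.3, 61.6 and 66.7 CPM (-0.87 ± 0.06 (SE), adjusted p = 1.13e-09), and rose with TMPyP4 to 182, 185 and 186 CPM (0.69 ± 0.06 (SE), adjusted p = 7.16e-08). The prolyl hydroxylase Egln3 rose with Cre (0.71), and Vegfa, the angiogenic factor, rose in both (0.53 and 0.92). For RTEL1 C1252A/C1255A +GFP against Rtel1 F/F +GFP cells DESeq2 called 3 higher and 5 lower of 16 HIF targets. This count leaves out Ero1l, which was listed with an alternative name and not matched. Of the transcription factors and regulators, 2 higher and 1 lower of 9 were called with Cre and 0 higher and 2 lower of 9 with TMPyP4, where DESeq2 called 1 higher and 2 lower. Myc rose with Cre (0.81 ± 0.20 (SE), adjusted p = 0.00212), and Arnt, the partner of HIF-1α, fell in both (-0.48 and -0.24). The other calls were Mycn with Cre (2.60) and Epas1 with TMPyP4 (-1.67), both below 1 TPM in the 3 groups and named after their values were seen. Hif1a had -0.16 ± 0.09 (SE), adjusted p = 0.135, with Cre and 0.24 ± 0.09 (SE), adjusted p = 0.03, with TMPyP4. Between RTEL1 C1252A/C1255A +GFP and Rtel1 F/F +GFP cells DESeq2 called 2 higher and 2 lower of these 9 transcription factors and regulators.

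Growth and housekeeping genes were read alongside, since Gapdh and Pgk1 often serve as references. Of 12 proliferation genes 4 higher and 3 lower of 12 were called with Cre and 2 higher and 2 lower of 12 with TMPyP4, where DESeq2 called 1 higher and 3 lower. The ribonucleotide reductase subunit Rrm2 rose with Cre (1.19), and cyclin B1, Ccnb1, rose in both (0.64 and 0.31), as did the checkpoint kinase Bub1 (0.34 and 0.33). Mki67, whose protein Ki-67 marks cycling cells, fell in both (-0.59 and -0.62), as did the replication helicase subunit Mcm5 (-0.36 and -0.44), and Mcm2 fell with Cre (-0.46). The 12 summed to 2598, 2653 and 2534 TPM in +GFP and 2335, 2674 and 2352 TPM in +Cre libraries, which overlapped, and to 2212, 2285 and 2177 TPM in TMPyP4-treated libraries, all below the +GFP libraries. Of 10 other common reference genes 5 higher and 0 lower of 10 were called with Cre and 3 higher and 0 lower of 10 with TMPyP4, with a median log2 fold change of 0.25 with Cre. The purine salvage enzyme Hprt (0.90 and 0.64), cyclophilin A, Ppia (0.72 and 0.54), and the succinate dehydrogenase subunit Sdha (0.48 and 0.38) rose in both, and Ywhaz (0.27) rose with Cre. Of the 10 fibroblast markers, 2 were called higher and 7 lower with Cre, and 0 higher and 7 lower with TMPyP4, led by the fall of Col3a1 with Cre (-2.35). For undeleted RTEL1 C1252A/C1255A +GFP against Rtel1 F/F +GFP cells DESeq2 also called 2 higher and 7 lower of these 10. In that comparison it called 5 higher and 1 lower of the 10 reference genes, and 6 higher and 1 lower of the 12 proliferation genes. The part of the fibroblast markers and of the reference and proliferation genes in the changes of the 10 genes was not tested.

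Over the 21 libraries the 10 genes were not alike in profile. Pearson's r of log2 CPM with the mean of the other members was 0.94 for Gapdh, 0.91 for Pkm, 0.88 for Ldha and 0.86 for Eno1. It was 0.56 for Aldoa, 0.46 for Pgk1, 0.30 for Hk2, 0.26 for Pfkl, 0.25 for Slc2a1 and 0.16 for Pgam1. Among 10131 genes outside the lists whose mean reached 5 CPM, the profile closest to the mean of the 10 belonged to Pgs1 (r = 0.95), followed by 2410016O06Rik (0.91), Coq4 (0.90), Klhdc4 (0.90) and Snx11 (0.90). Their transcripts held 55.04 to 61.4% GC. The 21 points share cell lines and the GC slopes of their libraries, so these values describe the libraries and carry no test.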

How the data were processed

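RNA of 21 libraries (3 in each of 7 groups of MEFs) was sequenced as single-end reads after mRNA library preparation. The authors trimmed reads with cutadapt 1.9.1 and quantified genes with RSEM 1.3.0 around STAR 2.5.2a on the mm10 genome, per the labels and the methods of the study, which tested with DESeq2. The deposited table holds, for 24454 genes in each library, expected counts (deposited as whole numbers) and TPM, and both were used as the authors deposited them. RSEM divides reads that fit several genes, so near copies such as Eno1 and Eno1b can exchange reads.

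Counts were normalised by TMM and filtered with filterByExpr, and 13719 genes were tested in 1 fit over all libraries (edgeR 4.0.16 in R 4.3.3, glmQLFit with robust estimation and glmQLFTest, two-sided, 14 residual degrees of freedom). A prior count of 2 was used for log2 CPM values only, and the fit kept the default of edgeR. Genes were called at a Benjamini-Hochberg adjusted p of at most 0.01 over all genes tested, the threshold of the study. TPM was used only for levels between genes and shares. p-values rest on the spread between libraries of the same group, pooled over all groups in that fit. The labels call the 3 cultures of a group biological replicates. Library depth (32069888 to 51938593 counts) left none of the 10 genes near the filter on low counts. No pair of libraries held more than 3.46% identical gene counts.

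The 10 genes and all gene lists were chosen with earlier results of these data known. Named were the 10 genes, Rtel1 and Terf1, up to 4 called genes of largest change per list among those with a mean of at least 5 CPM, isozymes with at least 5% of the family TPM, and the 5 genes closest in profile. Tpi1, Hif1a, Ywhaz, the marker genes and the genes so marked in the text were named outside this rule. Alternatives were DESeq2 1.42.0, 3 other scalings, 2 other filters, fits on the compared groups only, a replicate block, a threshold of 0.05 and leaving out each library. A GC correction (loess with a span of 0.3 on transcript GC content), omission of the libraries numbered 2, summed Eno1 and Eno1b counts and another control group were added after seeing the data. Near copies were found by BLAST of transcripts at 95% identity or more over at least 101 bases. The test script was checked on simulated counts. The value of 1 called gene of the lists is not reported here. Same-numbered libraries of TMPyP4-treated and Rtel1 F/F +Cre cells deviated together (correlations over 11840 genes of 0.72, 0.76 and 0.41) as did those of both RTEL1 C1252A/C1255A groups (0.86, 0.84 and 0.42), and those of other pairs of groups did not all do so.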

Additional observations from a re-analysis of the deposited data

Results flagged for a closer look

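The effect of Cre on 5 of the 10 genes differed between Rtel1 F/F cells and both other lines by the interaction test (edgeR's quasi-likelihood fit, Benjamini-Hochberg adjusted p of at most 0.01). Against RTEL1 C1252A/C1255A cells the difference in log2 fold change was 0.79 for Pgk1, 0.79 for Eno1, 0.70 for Pgam1, 0.69 for Gapdh and 0.65 for Ldha. Against Terf1 F/F cells it was 0.92 for Pgk1, 0.81 for Pgam1, 0.76 for Gapdh, 0.66 for Eno1 and 0.58 for Ldha. Both tests use the same Rtel1 F/F libraries, whose +GFP group had the lowest level of the 7 for Gapdh, Pgk1, Eno1 and Ldha. Of all genes, 25.1% (12.8% higher) differed from RTEL1 C1252A/C1255A and 30.2% (15.8% higher) from Terf1 F/F cells. Eno1 was called in neither with Eno1b counts added, and Gapdh lost its call against RTEL1 C1252A/C1255A cells in 8 of the 12 fits that left out 1 library and under 3 of the other alternatives.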

How the results depend on the processing

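Of 1109 results of single genes under alternatives, 84 changed their call, and of 660 fits without 1 library 39 did. A change of call was a crossing of the threshold or a reversed sign where either result was called. The count of 10 genes called ranged over fits without 1 library from 6 to 7 in Rtel1 F/F +Cre against +GFP, 1 to 4 for TMPyP4 against +GFP, 3 to 5 for +Cre against TMPyP4, 6 to 7 for RTEL1 C1252A/C1255A +GFP and 5 to 6 for Terf1 F/F +GFP against Rtel1 F/F +GFP, and was 0 throughout for Cre in the other lines. The difference in Cre effect ranged from 4 to 7 against RTEL1 C1252A/C1255A and from 5 to 6 against Terf1 F/F cells. With 1 library left out of a group of 3, the spread was pooled over all groups. The shares of all genes called in these fits are not reported here. The ranges therefore do not tell a change in the 10 genes from a change in calls over all genes.

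With RTEL1 C1252A/C1255A +GFP as the control, 0 genes were called for Rtel1 F/F +Cre, and the signs of Gapdh (-0.0255), Eno1 (-0.247) and Ldha (-0.0129), called before, reversed, as did those of Hk2 (-0.0949), Aldoa (-0.00896), Slc2a1 (0.21) and Pfkl (0.31), not called with either control. For TMPyP4 those of Pgk1 (-0.35), Pgam1 (-0.43), Eno1 (-0.49) and Ldha (-0.53) reversed, as did those of Gapdh (-0.29), Pkm (-0.43) and Slc2a1 (0.14), not called with either control. The cause was not tested. The TMPyP4 count of 3 became 1 with total counts in place of TMM (29.1% of all genes), 5 at a threshold of 0.05 (43% of all genes), 5 after the GC correction with or without the block (44% and 35.6% of all genes called) and 0 without the libraries numbered 2 (12.9%, fewer samples). The count of 4 for +Cre against TMPyP4 became 2 when only these groups were fitted (7.46% of all genes). The differences in Cre effect became 8 of 10 against RTEL1 C1252A/C1255A cells after the GC correction, with or without the block, and 8 of 10 against Terf1 F/F cells with the correction and the block (38.8, 31.1 and 43% of all genes, in that order). Total counts moved the median of all genes from -0.03 to -0.14 on the log2 scale for Rtel1 F/F +Cre, from -0.03 to -0.15 for RTEL1 C1252A/C1255A +GFP against Rtel1 F/F +GFP and from -0.05 to -0.16 for the difference from RTEL1 C1252A/C1255A cells.

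With the replicate number as a block, the counts were 7 for Rtel1 F/F +Cre (Hk2 added), 4 for TMPyP4 (Gapdh added), 4 for +Cre against TMPyP4, 0 and 0 for Cre in RTEL1 C1252A/C1255A and Terf1 F/F cells, 7 and 6 for the +GFP groups of these lines against Rtel1 F/F +GFP, and 7 and 6 for the differences in Cre effect. Of all genes, the block called 52.3, 39.6, 20.7, 1.57, 4.68, 54.7, 62.3, 33.5 and 40.4% in the same order. In the pairs of groups whose numbers pair the libraries, the block changed no call. Depth was not varied, and Hk2, the lowest of the 10, had 881 to 1669 counts per library.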
